A study of Homo sapiens with 20 samples.

Results

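The clade B serpins of this report are 10 genes of that clade, SERPINB1 to SERPINB9 and SERPINB13, chosen by name from the 57500 genes counted in every library of this series. SERPINB10, SERPINB11 and SERPINB12 of the same clade are not among them. All 10 were found in the 20 libraries, which hold RNA of NTERT cells, a telomerase-immortalized line of human keratinocytes. The cells were WT or GCN2KO and were collected unwounded or 6 h after high-density wounding (HDW), in which a grid of parallel scratches was drawn across the cell sheet, with 5 libraries in each of the 4 groups. GCN2, encoded by EIF2AK4, is a kinase that phosphorylates eIF2α and so lowers protein synthesis. The GCN2KO cells were a pool of CRISPR-edited early passage cells and not a clone, and both genotypes were grown in low calcium medium and, per the study's methods, brought to differentiate with serum and calcium ahead of wounding. The comparisons asked how the loss of GCN2 altered gene expression before and after wounding, and how the wounding response differed between the genotypes.

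Serpins are suicide inhibitors: a protease cleaves an exposed loop of the serpin, the serpin refolds, and the protease is trapped in a dead covalent complex. Clade B members lack a classical signal peptide and act mainly inside the cell, although several are also released, and their targets include serine proteases and lysosomal cysteine cathepsins. Epidermal keratinocytes make many of them, and inherited loss of SERPINB7 or SERPINB8 disturbs the barrier of the skin.

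The libraries hold 14083504 to 34611570 counts, and libraries of a group differed from each other by more than counting noise in all 40 pairs (chi-square per degree of freedom of 2.41 to 49.4). EIF2AK4 was lower in GCN2KO cells, at 894 ± 61.8 normalized read counts against 4355 ± 149 in unwounded cells and at 874 ± 66.5 against 4194 ± 129 after HDW (SD, n = 5), the direction that the labels give. Normalized read counts are counts scaled to the mean effective library size of the 20 libraries. All 5 basal keratinocyte markers were present, with a summed level of 13505 to 18241 CPM (counts per 1000000 of the effective library size), and 4 of them were lower in GCN2KO cells under both conditions. Of 8 differentiation markers, 7 had a mean of at least 10 counts, and loricrin was at or near 0. Markers of fibroblasts summed to at most 36.1 CPM, those of melanocytes to at most 3.49, of immune cells to at most 4.15 and of endothelial cells to at most 0.633. In bulk RNA, fewer cells of a type and less RNA per cell cannot be told apart.

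The 10 genes lie in 2 clusters. On chromosome 18 (GRCh38), 7 genes span chr18:63476958-64019779 in the order SERPINB5, SERPINB13, SERPINB4, SERPINB3, SERPINB7, SERPINB2 and SERPINB8, and SERPINB3 and SERPINB4 are on the minus strand. On chromosome 6, SERPINB1, SERPINB9 and SERPINB6 span chr6:2832332-2972165, all on the minus strand. SERPINB2 shares 19.96% of its exonic bases with a gene on the same strand that was not analysed here, and SERPINB8 9.07% with HMSD and 1 other gene. The clade B genes left over in the chromosome 18 cluster were close to silent: SERPINB12 had 20 counts over all 20 libraries, SERPINB11 had 4 and SERPINB10 had 153.

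Levels were compared between genes in CPM per kilobase of exon. In unwounded WT cells SERPINB5 (maspin, a clade B member that does not inhibit proteases) was the most abundant at 165, with a range of 160 to 173, followed by SERPINB7 at 104 ± 5.41 (SD, n = 5). SERPINB1 at 28.6, SERPINB3 at 25.8 and SERPINB13 at 23.3 came next, and the ranges of neighbours in that order overlapped. SERPINB2 stood at 13.1, SERPINB4 at 6.92, SERPINB6 at 6.62 and SERPINB8 at 5.25, of which only SERPINB4 and SERPINB6 overlapped as neighbours. SERPINB9, the inhibitor of granzyme B, was the lowest at 0.711. After HDW in WT cells SERPINB2 came after SERPINB5 and SERPINB7 at 113 ± 20.5, with a range that overlapped that of SERPINB7 at 143 ± 17.9. In GCN2KO cells SERPINB7 was first, at 158 ± 26.0 unwounded and 159 ± 10.4 after HDW, with SERPINB5 at 139 in both and overlapping ranges. This order rests on the length given to a gene. The exons of SERPINB6 cover 13201 bases over all its transcripts but 1315 in the canonical one, and by canonical length its level in unwounded WT cells was 66.4, below only those of SERPINB5 and SERPINB7. By that length SERPINB5 was first in all 4 groups, at 201 against 190 for SERPINB7 in unwounded GCN2KO cells.

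**Figure D1:**
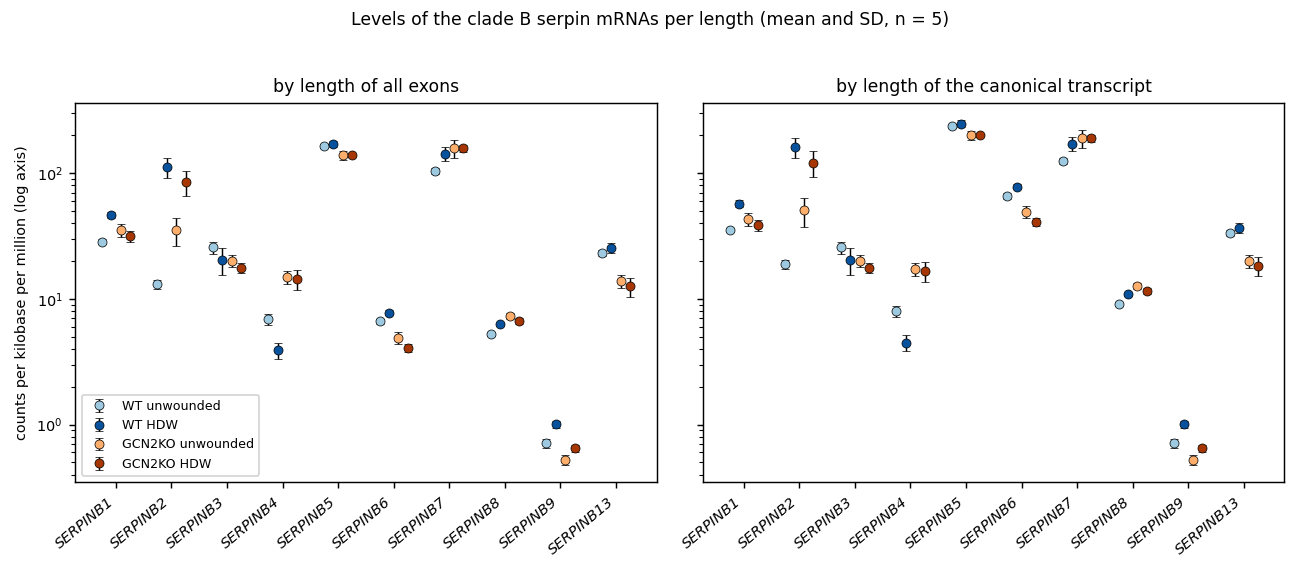
Levels of the 10 genes in CPM per kilobase on a log axis, by the length of all exons (left) and of the canonical transcript (right), as the mean and SD of 5 libraries for each of the 4 groups. SERPINB5 and SERPINB7 are at or near the top in both, SERPINB2 goes from 13.1 to 113 after HDW in WT cells by all exons, and SERPINB6 is the gene that changes rank most with the length.

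Together the 10 genes took 1298 ± 49.2 CPM in unwounded WT cells and 1772 ± 171 after HDW, and 1377 ± 145 and 1480 ± 75.5 in GCN2KO cells (SD, n = 5). SERPINB2 made up 2.77% of these counts in unwounded WT cells and 17.4% after HDW. In GCN2KO cells it made up 6.97% and 15.6%. The 3 chromosome 6 genes summed to 249 ± 12.9 CPM in WT and to 153 ± 13.6 in GCN2KO cells after HDW, against 177 ± 6.94 and 174 ± 19.6 in unwounded cells.

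**Figure D2:**
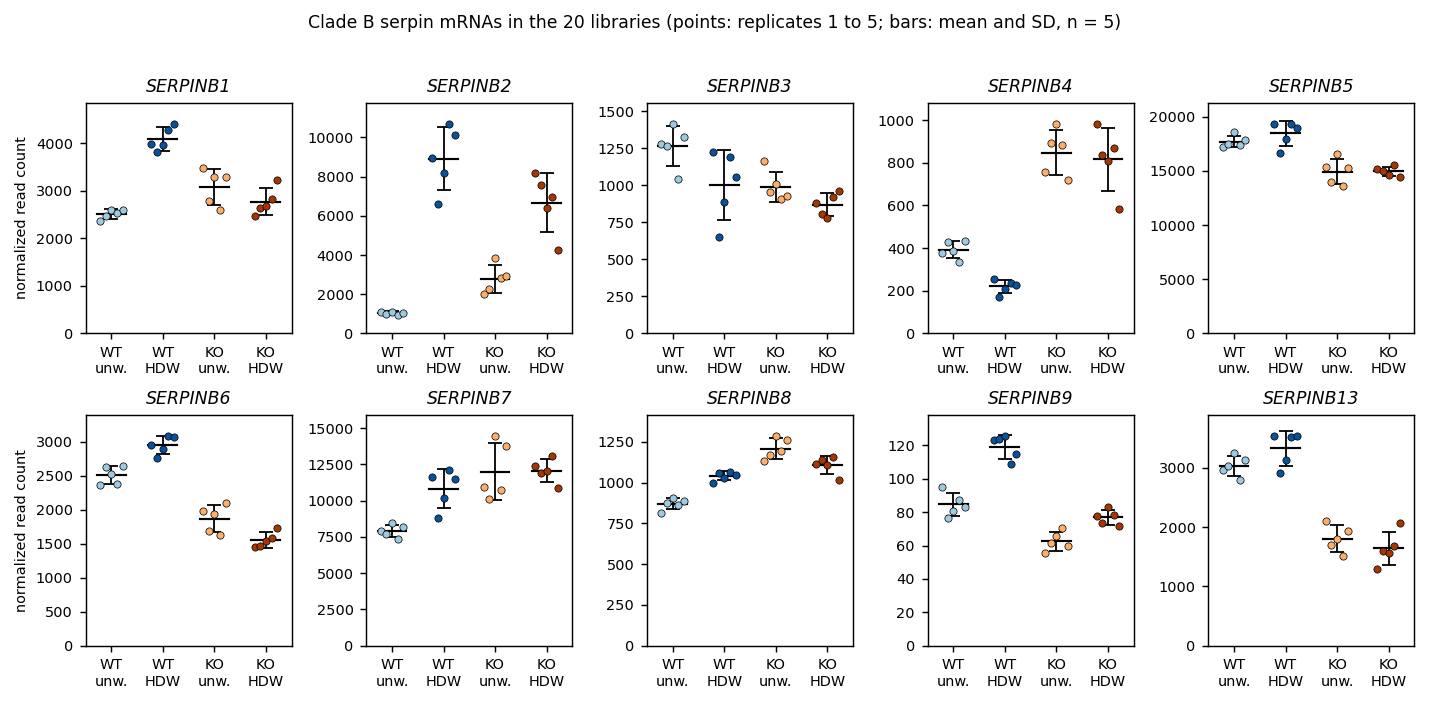
Normalized read counts of the 10 genes in the 20 libraries, 1 point per library, with the mean and SD of each group (n = 5) and axes that start at 0. SERPINB2 is lowest in unwounded WT cells (916 to 1113) and highest in WT cells after HDW (6610 to 10704), and SERPINB4 is higher in every GCN2KO library (582 to 984) than in every WT library (172 to 435).

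Counted over the 10 genes, 5 were higher and 5 lower in unwounded GCN2KO than WT cells at an adjusted p of at most 0.05, where 33.4% of the 15348 genes tested were higher and 33.1% lower. DE genes, for which the log2 fold change also had to reach 1 or -1, were SERPINB2 and SERPINB4 (2 of 10 higher, against 8.21% of all genes). The groups did not overlap for 4 genes that were higher (26.3% of all genes) and 4 that were lower (27% of all genes). The median log2 fold change was 0.031, against 0.0042 over all genes tested. After HDW 1 gene was higher (35.9% of all genes) and 6 were lower (35.8%), and SERPINB4 was a DE gene that was higher (7.1% of all genes) and SERPINB13, near the fold threshold, one that was lower (7.83%). The groups did not overlap for 1 gene that was higher (27.9% of all genes) and 5 that were lower (29.3%). The median was -0.36 against 0.0020 over all genes.

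With HDW in WT cells 6 of the 10 were higher (26.1% of all genes) and 2 lower (25.2%), and SERPINB2 was the DE gene, higher (2.62% of all genes). The groups did not overlap for 6 genes that were higher (19.2%) and 1 that was lower (17.7%), and the median was 0.24 against -0.0024 over all genes. With HDW in GCN2KO cells 1 was higher (11.9% of all genes) and 1 lower (10.8%), and SERPINB2 was again the DE gene (0.475% of all genes were DE and higher). The groups did not overlap for 2 genes, both higher (7.52%), and the median was -0.079 against -0.00097. Replicates varied more in this comparison, with a biological coefficient of variation in edgeR of 0.108, against 0.0587 for HDW in WT cells. With signs ignored, changes over all genes tested had similar medians, 0.189 in GCN2KO and 0.198 in WT cells. Counts of calls alone therefore do not compare how large the responses were. The part of the spread in the lower number of calls was not tested. The response differed between the genotypes for 6 of the 10 (23.7% of the 16536 genes tested), 1 higher (11.2% of all genes) and 5 lower (12.5%) in GCN2KO than WT cells, of which SERPINB2 passed the fold threshold (2.15% of all genes did so, lower). The median of these differences was -0.33 against -0.0090. The comparisons share groups, so that unwounded GCN2KO libraries, for instance, enter both the genotype comparison and the wounding comparison.

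**Figure D3:**
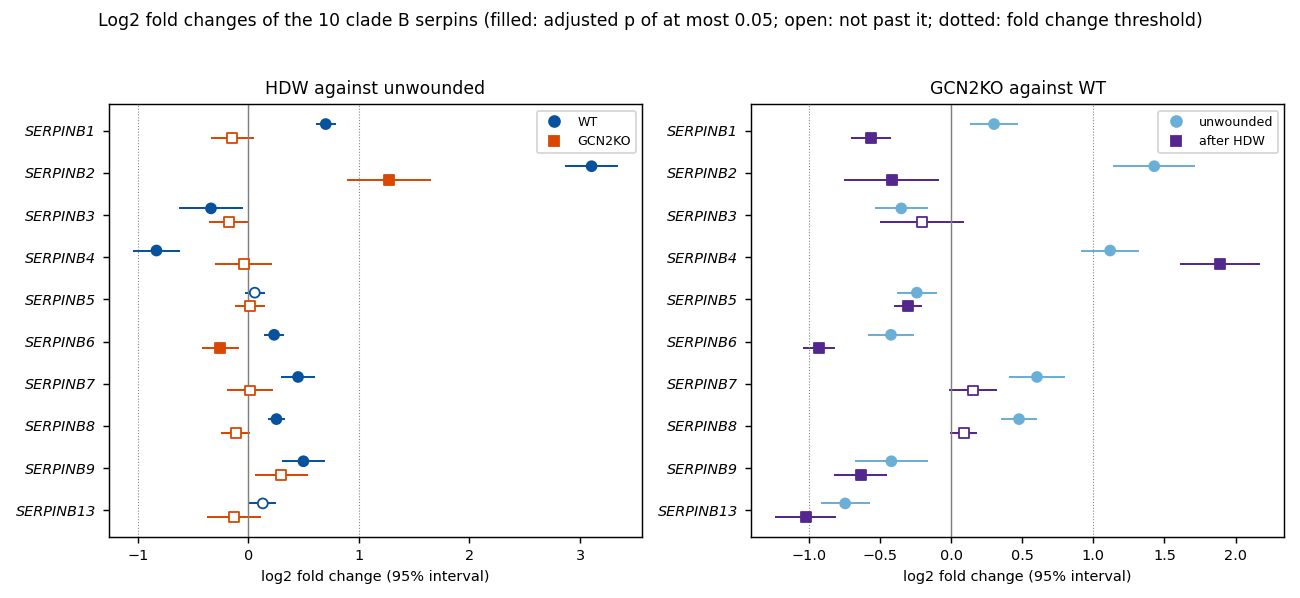
Log2 fold changes of the 10 genes with 95% intervals, for HDW against unwounded cells (left) and GCN2KO against WT cells (right). Filled points passed an adjusted p of 0.05 and dotted lines mark a log2 fold change of 1 in size: SERPINB2 is at 3.10 in WT and 1.28 in GCN2KO cells on the left, and SERPINB4 at 1.12 and 1.89 on the right.

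SERPINB2, also named PAI-2, inhibits the plasminogen activators urokinase and tPA. It had the largest wounding response of the 10 genes and also rose with loss of GCN2 in the absence of a wound. Its promoter is shown because it holds an AP-1 motif, the binding letters of the FOS and JUN factors, that begins at position -102 from the start of transcription, and a TATA box at -30. The window is chr18:63887455-63887754 on the plus strand (RefSeq, GRCh38.p14), 5′ to 3′, with the AP-1 motif TGAATCA and the TATA box in capitals.
SERPINB2: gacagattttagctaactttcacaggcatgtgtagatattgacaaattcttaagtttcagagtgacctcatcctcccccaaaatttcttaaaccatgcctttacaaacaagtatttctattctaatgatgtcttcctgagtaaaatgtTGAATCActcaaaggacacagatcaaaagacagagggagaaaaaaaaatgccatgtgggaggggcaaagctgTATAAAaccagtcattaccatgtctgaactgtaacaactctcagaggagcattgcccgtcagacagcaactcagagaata

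In unwounded WT cells the 5 libraries had 1107, 979.6, 1113, 916 and 1063 normalized read counts of SERPINB2. In unwounded GCN2KO cells they had 2003, 2270.2, 3843, 2818 and 2939. After HDW the WT libraries had 8927, 6610.2, 8202, 10704 and 10103, and the GCN2KO libraries 8189, 7567, 6394, 6972 and 4242. The unwounded groups did not overlap each other or the wounded groups, and the wounded groups overlapped, with replicate 5 of GCN2KO the lowest. HDW raised SERPINB2 8.60-fold in WT cells (log2 fold change 3.10, SE 0.11, adjusted p = 2.60e-11) and 2.42-fold in GCN2KO cells (1.28, SE 0.18, adjusted p = 5.52e-04). The response differed between the genotypes by -1.84 on the log2 scale (95% interval -2.31 to -1.38, adjusted p = 2.81e-06). GCN2KO cells had 2.69-fold more than WT cells when unwounded (1.43, SE 0.14, adjusted p = 1.35e-07). After HDW the sign was the opposite, with a difference of -0.42 (SE 0.16, adjusted p = 0.0268). That call was lost when WT HDW replicate 4 (adjusted p = 0.0725), WT HDW replicate 5 (0.0644) or GCN2KO HDW replicate 3 (0.0561) was left out.

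SERPINB3 and SERPINB4, the squamous cell carcinoma antigens, are neighbouring paralogs. SERPINB3 inhibits cathepsins L, S and K, and SERPINB4 inhibits cathepsin G and mast cell chymase. Their promoters are printed because the sequences around their starts are nearly the same, with 98.7% of 300 bases identical, and the transcripts changed unequally. These windows include bases after the start. The SERPINB3 window is chr18:63661844-63662143 and that of SERPINB4 is chr18:63644207-63644506, both on the minus strand (RefSeq, GRCh38.p14) and written 5′ to 3′. Capitals mark the 4 substitutions G126A, G201A, C228T and T260C, with the SERPINB3 base first and positions counted from 1 at the 5′ end of the window.
SERPINB3: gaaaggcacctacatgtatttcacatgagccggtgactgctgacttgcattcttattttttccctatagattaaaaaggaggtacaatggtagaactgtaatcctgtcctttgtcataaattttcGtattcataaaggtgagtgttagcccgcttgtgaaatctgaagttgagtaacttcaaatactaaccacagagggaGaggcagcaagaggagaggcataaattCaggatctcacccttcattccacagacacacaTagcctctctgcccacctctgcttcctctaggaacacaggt
SERPINB4: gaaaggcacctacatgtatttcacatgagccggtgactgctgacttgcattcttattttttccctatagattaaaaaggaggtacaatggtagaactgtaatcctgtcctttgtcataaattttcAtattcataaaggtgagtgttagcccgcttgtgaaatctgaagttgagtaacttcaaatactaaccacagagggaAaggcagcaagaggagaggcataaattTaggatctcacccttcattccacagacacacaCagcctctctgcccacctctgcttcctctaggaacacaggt

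SERPINB4 had 378, 426, 385, 335 and 435 normalized read counts in the 5 unwounded WT libraries, and 758, 892, 981, 883 and 722 in the unwounded GCN2KO libraries. After HDW it had 256, 172, 209, 235 and 227 in WT and 984, 837, 809, 871 and 582 in GCN2KO libraries. Every GCN2KO library was above every WT library, and every WT library after HDW was below every unwounded one. SERPINB4 was 2.17-fold higher in GCN2KO cells when unwounded (log2 fold change 1.12, SE 0.097, adjusted p = 4.62e-08) and 3.71-fold higher after HDW (1.89, SE 0.13, adjusted p = 1.92e-08). In WT cells HDW lowered it (-0.83, SE 0.099, adjusted p = 4.88e-06). In GCN2KO cells the change with HDW was -0.043 (95% interval -0.30 to 0.22, adjusted p = 0.828), and the responses differed by 0.78 (SE 0.17, adjusted p = 0.00165).

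SERPINB3 had 1280, 1263, 1417, 1042 and 1325 normalized read counts in unwounded WT libraries and 1161, 953, 1006, 905 and 924 in unwounded GCN2KO libraries. After HDW it had 1222, 649, 890.3, 1192 and 1057 in WT and 882, 809, 779, 918 and 962 in GCN2KO libraries. All 4 groups overlapped at least 1 other group, and WT HDW replicate 2 was the lowest library. SERPINB3 was lower in unwounded GCN2KO cells (-0.35, SE 0.088, adjusted p = 0.00233), the direction opposite to that of SERPINB4. After HDW the difference was -0.20 (95% interval -0.50 to 0.089, adjusted p = 0.193), and without WT HDW replicate 2 it was -0.33 (adjusted p = 0.00534). HDW lowered SERPINB3 in WT cells by a call near the threshold (-0.34, SE 0.13, adjusted p = 0.0468), which 7 of the 10 fits that left out 1 library did not keep. In GCN2KO cells the change was -0.18 (adjusted p = 0.138), and the responses were not shown to differ (0.15, adjusted p = 0.570).

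SERPINB4 took 23.7% ± 1.58 of the counts of both paralogs in unwounded WT cells and 18.3% ± 1.75 after HDW, against 46.1% ± 4.33 and 48.2% ± 6.04 in GCN2KO cells (SD, n = 5). The WT libraries ranged from 16.5% to 25.2% and the GCN2KO libraries from 37.7% to 52.7%. Near-identical copies can exchange reads. The study sequenced paired-end reads of 150 bases and counted those that mapped to 1 place. Of the windows of 150 bases in the 1707-base SERPINB3 transcript none were also in that of SERPINB4, and of the shorter windows of 50 bases 24.9% were. Exchange of reads itself was not tested. When the counts of both were added into 1 gene, the difference between unwounded GCN2KO and WT cells was 0.15 (adjusted p = 0.0956) and after HDW 0.47 (adjusted p = 0.00397). In the annotation used here SERPINB3 also shares 36.3% of its exonic bases with SERPINB11 on the other strand, a gene with 4 counts in all. SERPINB4 shares no exonic bases with another gene. Whether the counting used the strand is not given, and a loss of SERPINB3 counts in the shared bases was not tested. Such a loss would lower the level of SERPINB3 and raise the share of SERPINB4.

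**Figure D4:**
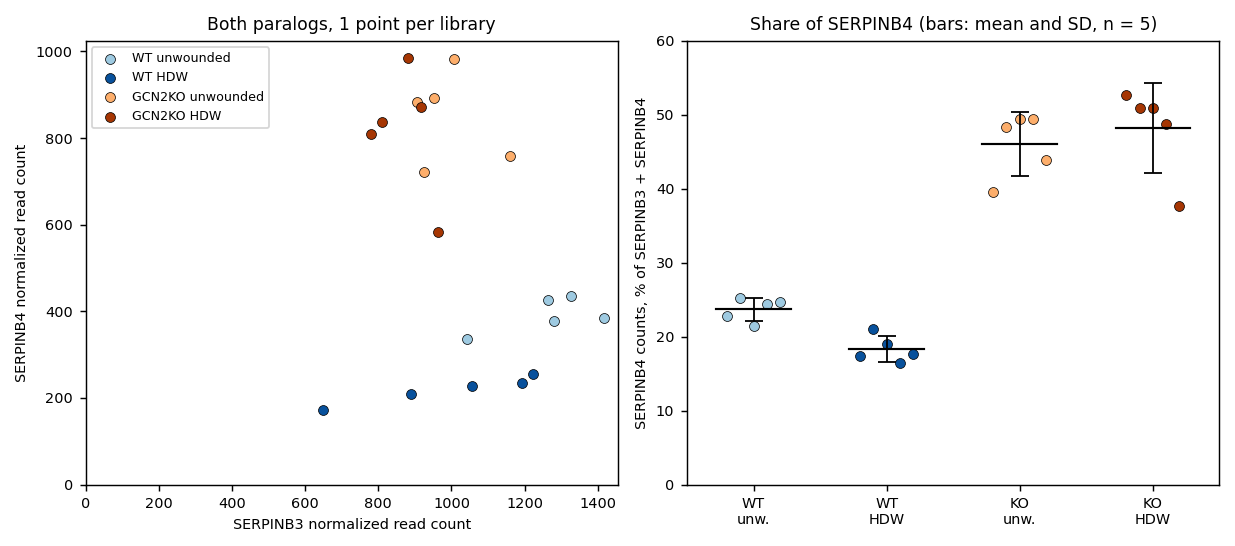
Left, normalized read counts of SERPINB3 and SERPINB4, 1 point per library. Right, the counts of SERPINB4 as a percentage of both genes, with the mean and SD of each group (n = 5): WT libraries lie between 16.5% and 25.2% and GCN2KO libraries between 37.7% and 52.7%.

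SERPINB13 (hurpin or headpin), an inhibitor of cathepsins L and K, was lower in GCN2KO cells under both conditions. Its promoter, chr18:63587093-63587392 on the plus strand (RefSeq, GRCh38.p14), is shown with the AP-1 motif TGACTCA at position -87 and the TATAAA letters after the start in capitals. The part of these motifs in the changes was not tested.
SERPINB13: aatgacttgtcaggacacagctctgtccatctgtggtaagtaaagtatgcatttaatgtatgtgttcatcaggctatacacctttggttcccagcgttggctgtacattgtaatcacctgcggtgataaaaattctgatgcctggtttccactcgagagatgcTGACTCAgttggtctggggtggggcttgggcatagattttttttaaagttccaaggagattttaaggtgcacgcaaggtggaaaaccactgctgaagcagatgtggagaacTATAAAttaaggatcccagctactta

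The unwounded WT libraries had 2963, 3026, 3255, 2794 and 3134 normalized read counts of SERPINB13, and the unwounded GCN2KO libraries 2098, 1695, 1796, 1513 and 1930.0. After HDW they had 3541, 2913, 3129, 3516 and 3540.0 in WT and 1290.2, 1596, 1560.0, 1687 and 2073 in GCN2KO cells. No GCN2KO library reached the lowest WT library. The difference was -0.74 in unwounded cells (SE 0.082, adjusted p = 6.72e-07) and -1.02 after HDW (SE 0.10, adjusted p = 5.17e-07). The latter no longer reached -1, the threshold of a DE gene, by library size alone or without GCN2KO HDW replicate 1 (-0.94). The change with HDW was 0.13 in WT (adjusted p = 0.0669) and -0.13 in GCN2KO cells (adjusted p = 0.435). The WT change passed the threshold with no filter on low counts (adjusted p = 0.0143) and without WT unwounded replicate 3 (0.0436), WT HDW replicate 2 (0.00583) or WT HDW replicate 3 (0.0481). The difference between the responses was -0.27 (adjusted p = 0.149), and -0.37 (adjusted p = 0.0240) without GCN2KO HDW replicate 5.

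The 3 chromosome 6 genes inhibit serine proteases: SERPINB1 those of neutrophil granules, SERPINB6 cathepsin G among others, and SERPINB9 granzyme B. All 3 rose with HDW in WT cells. SERPINB1 had 2355, 2459, 2584, 2539 and 2600 normalized read counts in unwounded WT libraries and 3987, 3808, 3953, 4270.3 and 4411 after HDW. In GCN2KO libraries it had 3475, 2778, 3293, 2588 and 3286 unwounded and 2477, 2638, 2680.5, 2817 and 3219 after HDW. The WT groups were far apart and the GCN2KO groups overlapped. HDW raised SERPINB1 1.62-fold in WT cells (0.70, SE 0.043, adjusted p = 4.54e-09), while the change in GCN2KO cells was -0.15 (95% interval -0.34 to 0.051, adjusted p = 0.258), and the responses differed by -0.86 (SE 0.11, adjusted p = 3.13e-06). Against WT, GCN2KO cells had more SERPINB1 when unwounded (0.30, SE 0.079, adjusted p = 0.0031) and less after HDW (-0.56, SE 0.065, adjusted p = 2.69e-06).

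SERPINB6 had 2359, 2634, 2534, 2381 and 2645 normalized read counts in unwounded WT libraries and 2960, 2759, 2898, 3089 and 3076 after HDW. GCN2KO libraries had 1980.4, 1689, 1943, 1632 and 2094 unwounded and 1450.4, 1471, 1536, 1588 and 1732 after HDW. The WT libraries rose without overlap and the GCN2KO libraries overlapped. HDW raised it in WT cells (0.23, SE 0.042, adjusted p = 2.66e-04) and lowered it in GCN2KO cells (-0.25, SE 0.080, adjusted p = 0.0351), the latter a call that 7 of 10 fits without 1 library lost. The responses differed by -0.50 (SE 0.093, adjusted p = 3.61e-04). SERPINB6 was lower in GCN2KO cells both unwounded (-0.42, SE 0.075, adjusted p = 1.12e-04) and after HDW (-0.93, SE 0.052, adjusted p = 3.20e-09).

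SERPINB9 was the least abundant, with 76.7 to 95.4 normalized read counts in unwounded WT, 109 to 126 in WT HDW, 55.7 to 70.6 in unwounded GCN2KO and 71.8 to 83.0 in GCN2KO HDW libraries. HDW raised it in WT cells (0.50, SE 0.093, adjusted p = 3.47e-04). In GCN2KO cells the libraries after HDW were all above the unwounded ones, with a change of 0.30 (SE 0.11) whose adjusted p was 0.0681. It was 0.0307 with all 20 samples in one fit and 0.0447 without GCN2KO unwounded replicate 4. The responses were not shown to differ (-0.21, 95% interval -0.49 to 0.069, adjusted p = 0.275). SERPINB9 was lower in GCN2KO cells unwounded (-0.42, adjusted p = 0.00639) and after HDW (-0.63, adjusted p = 1.52e-05).

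SERPINB7 (megsin), SERPINB8, which inhibits furin, and SERPINB5 are on chromosome 18. SERPINB7 had 7372 to 8441 normalized read counts in unwounded WT and 8769 to 12098 in WT HDW libraries, and 10083 to 14461 and 10897 to 13047 in the GCN2KO groups. The unwounded WT libraries were below all others. HDW raised it in WT cells (0.45, SE 0.071, adjusted p = 8.17e-05), and in GCN2KO cells the change was 0.018 (95% interval -0.19 to 0.23, adjusted p = 0.910), with a difference between the responses of -0.45 (SE 0.13, adjusted p = 0.0146). It was 1.52-fold higher in unwounded GCN2KO cells (0.60, SE 0.094, adjusted p = 3.24e-05). After HDW the difference from WT was 0.16 (95% interval -0.012 to 0.32, adjusted p = 0.0875).

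SERPINB8 had 815 to 907 normalized read counts in unwounded WT, 997 to 1068 in WT HDW, 1130.0 to 1287 in unwounded GCN2KO and 1016 to 1157 in GCN2KO HDW libraries. HDW raised it in WT cells (0.25, SE 0.038, adjusted p = 4.48e-05), the GCN2KO change was -0.12 (adjusted p = 0.184), and the responses differed by -0.38 (SE 0.071, adjusted p = 3.59e-04). Like SERPINB7 it was higher in unwounded GCN2KO cells (0.48, SE 0.061, adjusted p = 3.49e-06), while after HDW the difference was 0.089 (95% interval -0.0053 to 0.18, adjusted p = 0.0833). Both differences after HDW passed the threshold without GCN2KO HDW replicate 5, with adjusted p = 0.0343 for SERPINB7 and 0.0102 for SERPINB8, and SERPINB7 also without WT HDW replicate 4 (0.0440). SERPINB5 changed little with HDW, by 0.058 in WT (adjusted p = 0.272, and 0.0377 without WT HDW replicate 2) and 0.014 in GCN2KO cells (adjusted p = 0.899), and the responses were not shown to differ (-0.058, adjusted p = 0.643). It was lower in GCN2KO cells, at 14945 ± 1191 against 17704 ± 538 normalized read counts unwounded (-0.24, adjusted p = 0.00494) and 14974 ± 434 against 18464 ± 1156 after HDW (-0.30, adjusted p = 4.62e-05; SD, n = 5).

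Some neighbours went the same way and some did not. On chromosome 18, SERPINB7, SERPINB2 and SERPINB8 follow each other among the 10 genes and were all higher in unwounded GCN2KO cells (0.60, 1.43 and 0.48 on the log2 scale) and after HDW in WT cells. SERPINB10, which lies between SERPINB2 and SERPINB8 and had few counts, was lower with HDW in WT cells (-0.86, adjusted p = 0.0374). It was not tested between the genotypes. SERPINB13 and SERPINB4 are next to each other among the 10 genes and went in opposite directions in unwounded GCN2KO cells (-0.74 and 1.12). On chromosome 6, SERPINB1, SERPINB9 and SERPINB6 were all lower in GCN2KO cells after HDW (-0.56, -0.63 and -0.93). Of 11 genes that flank or lie within the clusters, 9 were tested in unwounded cells. Of these, 3 were higher (33.4% of all genes) and 4 lower (33.1%) in GCN2KO cells. TUBB2A, a tubulin gene beyond the chromosome 6 cluster, was higher by 3.23 (adjusted p = 3.33e-09) and VPS4B, next to SERPINB5, by 0.61 (adjusted p = 1.14e-06). BPHL (-0.88, adjusted p = 2.57e-06) and KDSR (-0.44, adjusted p = 9.94e-06) were lower. After HDW all 11 were tested, of which 2 were higher (35.9% of all genes) and 4 lower (35.8%) in GCN2KO cells. Of those on chromosome 6, BPHL (-0.88, adjusted p = 1.05e-06) and WRNIP1 (-0.22, adjusted p = 2.07e-04) were lower and TUBB2A was higher (3.08, adjusted p = 7.27e-08). With HDW in WT cells 10 neighbours were tested, of which 4 were higher (26.1% of all genes) and 3 lower (25.2%).

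**Figure D5:**
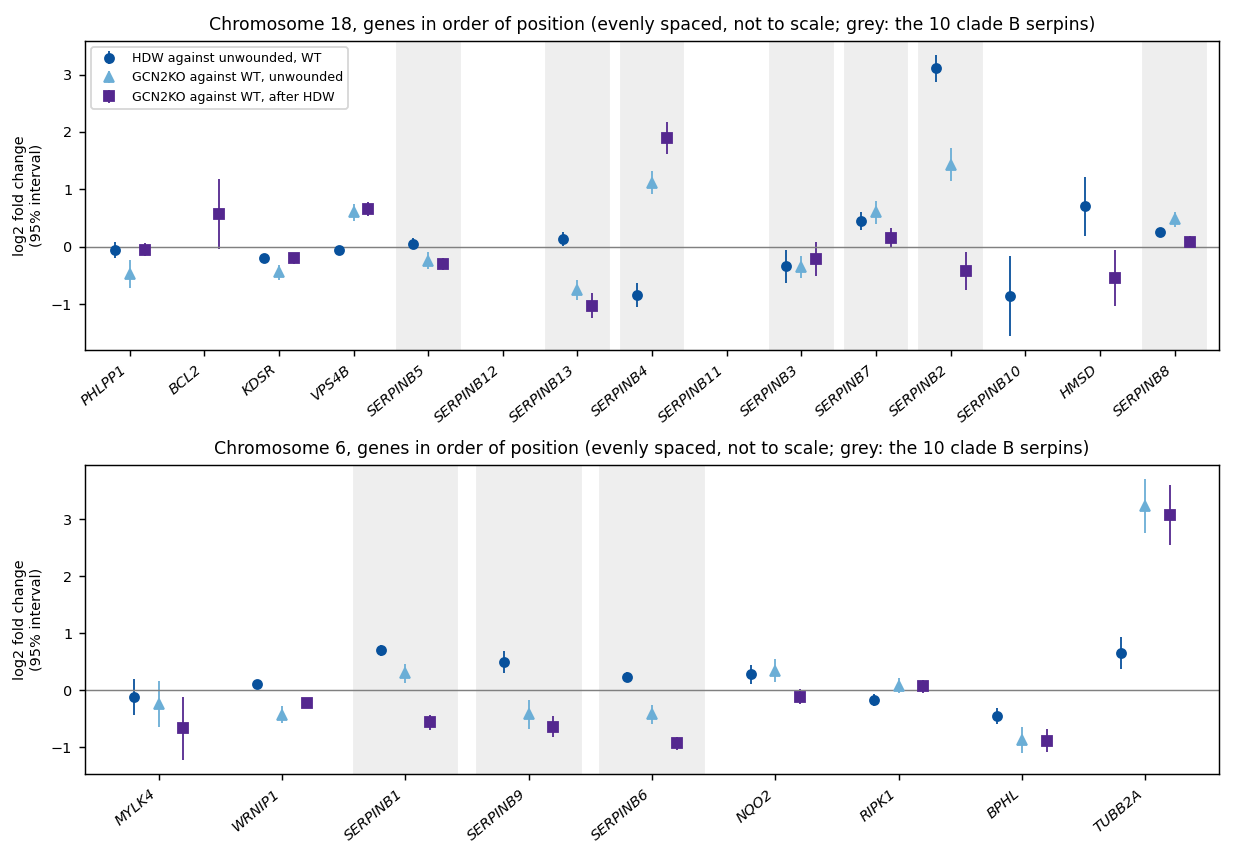
Log2 fold changes with 95% intervals of the genes of both clusters in order of position and evenly spaced, with the 10 clade B serpins shaded. Genes without points had too few counts to be tested. In unwounded GCN2KO against WT cells, SERPINB13 at -0.74 and SERPINB4 at 1.12 are neighbours with opposite signs. SERPINB7 at 0.60, SERPINB2 at 1.43 and SERPINB8 at 0.48 follow each other among the 10 genes with the same sign. SERPINB10 and HMSD lie between SERPINB2 and SERPINB8.

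Promoters of 300 bases, from RefSeq GRCh38.p14, were searched on both strands for 8 motifs. The 10 genes have 15 such promoters, and a gene with several has more chances of a match. The AP-1 letters TGANTCA were in 6 of 15 promoters and 5 of 10 genes, SERPINB2, SERPINB5, SERPINB7, SERPINB8 and SERPINB13, against 7.71% of the 35116 promoters in the table. Of these 5 genes, SERPINB2, SERPINB7 and SERPINB8 rose with HDW in WT cells and SERPINB5 and SERPINB13 did not pass the test, while SERPINB1, SERPINB6 and SERPINB9 rose and had no match. The TATAAA letters were in 6 of 15 promoters against 11.5%, and in SERPINB7 and SERPINB8 some of these matches lay on both strands, in SERPINB8 overlapping each other. TTCNNNGAA, the STAT letters, was in 3 of 15 promoters (SERPINB1, SERPINB7 and SERPINB8) against 7.66%, and the NF-kB motif in 1 (SERPINB7) against 1.91%. No member promoter held TGACGTCA (CRE, in 1.85% of all), TGATGCAA (the ATF4 and CEBP composite, 0.866%), TTGCGCAA (CEBP, 0.151%) or CCGGAAGT (ETS, 4.14%). A match is a run of letters and not a measured site.

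Of 12 proteases that clade B serpins inhibit, 7 were tested. In unwounded GCN2KO cells 3 were higher (33.4% of all genes) and 3 lower (33.1%) than in WT cells. PLAU, which encodes urokinase, a target of SERPINB2, was lower by a log2 fold change of -1.54 (adjusted p = 9.50e-10), and FURIN, a target of SERPINB8, by -1.21 (adjusted p = 1.55e-08). CTSL, encoding cathepsin L, was higher by 0.55 (adjusted p = 2.38e-06) and PLAT, encoding tPA, by 0.87 (adjusted p = 4.81e-06). After HDW 2 were higher (35.9% of all genes) and 4 lower (35.8%). PLAU was at -1.47 (adjusted p = 1.94e-09), FURIN at -1.35 (adjusted p = 6.81e-09), CTSL at 0.64 (adjusted p = 2.70e-07) and CTSK, encoding cathepsin K, at 1.30 (adjusted p = 2.11e-05).

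Among the same 7, 3 rose (26.1% of all genes) and 3 fell (25.2%) with HDW in WT cells and 1 rose in GCN2KO cells (11.9%). PLAT had the largest of these changes, 2.39 in WT (adjusted p = 2.60e-11) and 0.75 in GCN2KO cells (adjusted p = 0.00657), and its response differed by -1.65 (adjusted p = 2.14e-06), beside -1.84 for its inhibitor SERPINB2. PLAU changed by 0.023 with HDW in WT cells (adjusted p = 0.718) and by 0.11 in GCN2KO cells (adjusted p = 0.481). The response of CTSK differed by 0.89 (adjusted p = 0.0357), and that of the other 5 did not pass the threshold. The median differences between the responses were 0.057 for the 7 proteases and -0.33 for the 10 clade B serpins.

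Of 12 serpins of other clades, 9 were tested between the unwounded genotypes, and 2 were higher (33.4% of all genes) and 6 lower (33.1%) in GCN2KO cells. SERPING1, the inhibitor of complement C1 proteases, was at -1.25 (adjusted p = 4.14e-08), SERPINE2 at 1.41 (adjusted p = 6.94e-08) and SERPINF2, the antiplasmin, at -1.19 (adjusted p = 2.28e-06). The median difference between the responses to HDW was 0.048 for these 9 and -0.33 for the 10 clade B genes. Of 5 cystatins and related inhibitors of cysteine proteases, 4 rose with HDW in WT cells (26.1% of all genes) and 1 fell in GCN2KO cells (10.8%). Of their responses, 3 were lower in GCN2KO than WT cells (12.5% of all genes). The median difference between the responses was -0.27 for these 5, near that of the clade B genes. CST6 was the one that changed most, by 1.71 with HDW in WT (adjusted p = 7.71e-06) and -0.053 in GCN2KO cells (adjusted p = 0.833), a difference of -1.77 (adjusted p = 9.42e-05).

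Keratinocyte markers moved with the genotype. Of the 5 basal markers, 4 were lower in GCN2KO cells both unwounded (33.1% of all genes were lower) and after HDW (35.8%). They were COL17A1 (-1.36 and -1.25), KRT14 (-0.85 and -0.77), ITGA6 (-0.73 and -0.56) and TP63 (-0.52 and -0.43). The fifth, KRT5, named after its values were seen, was higher (0.50 and 0.52). The summed level of the differentiation markers was 312 to 412 CPM in unwounded WT, 324 to 494 in WT HDW, 568 to 781 in unwounded GCN2KO and 693 to 923 in GCN2KO HDW libraries. In unwounded cells 2 of the 7 tested were higher in GCN2KO cells (33.4% of all genes) and 3 lower (33.1%). IVL, encoding involucrin, was higher by 1.83, from 3126 ± 255 to 11072 ± 2637 normalized read counts (SD, n = 5), a larger change in counts than that of any other gene in the sum. SPRR1B was higher by 0.62, and CALML5 (-1.13) and FLG (-0.93) were lower. The part of basal and differentiation state in the values of SERPINB3, SERPINB4, SERPINB13 and the other members was not tested.

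Genes with the pattern most like that of a member were found by the root mean square difference of centred log2 CPM over the 20 libraries, among 12353 genes. For SERPINB2 these were SPRY4 (0.40) and SEMA7A (0.49), where SERPINB2 itself varied with a root mean square of 1.23. SPRY4 had 21.0 ± 5.87, 143 ± 21.2, 63.7 ± 15.04 and 137 ± 26.0 normalized read counts in unwounded WT cells, in WT cells after HDW, and in GCN2KO cells before and after HDW (SD, n = 5). For SERPINB4 they were H2BC12 (0.20) and CNTN1 (0.22) with 0.82 for SERPINB4 itself, and for SERPINB13 they were C19orf48P (0.077) and AHCY (0.089) with 0.48 for SERPINB13 itself. The nearest of the 9 other clade B genes was SERPINB7 at 1.05 from SERPINB2 and 0.74 from SERPINB4, and SERPINB6 at 0.15 from SERPINB13. The nearest of 9 genes nearly always lies farther off than the nearest of 12353, so these distances do not set the clade against other genes.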

How the data were processed

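RNA was sequenced from 20 samples of NTERT keratinocytes in 4 groups of 5 named by the labels. The authors used Trimmomatic for trimming, STAR for alignment to GRCh38 and featureCounts for counting reads that mapped to exons at 1 place. What they deposited are these counts, raw and not normalized. Strandedness and annotation release are not given in the sources used here. Symbols, positions and lengths came from GENCODE release 44, which matched 56410 of 57500 genes. The labels name 5 replicates per group and do not say how far back their cultures separate, so p-values measure the spread between these samples.

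Groups were compared in edgeR 4.0.16 (R 4.3.3) with glmQLFit and glmQLFTest on the 10 samples of each pair of groups, and on all 20 for the interaction of genotype and HDW, with TMM normalization, filterByExpr (minimum count 10, total 15) and Benjamini-Hochberg adjustment over all genes tested. The SE is the log2 fold change divided by the square root of F. Differences in response are GCN2KO minus WT. Alternatives used DESeq2 1.42.0, other scalings and filters, and fits without each sample. Counts were also simulated with nearly all genes left unchanged and with changed genes that had a mean of at least 50 counts. Of 67 genes changed by 0.5 on the log2 scale, 74.6% to 92.5% were recovered in the comparisons of 2 groups and 55.2% in the interaction. Far more genes passed the threshold in the data, so these rates need not hold there.

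The members, gene lists and motifs were chosen with earlier results of these data known. All members are named, with up to 4 genes of smallest adjusted p from each list. The values of 1 gene of these lists are not reported here. For each member that was a DE gene, the 2 genes with a mean of at least 50 counts and the smallest root mean square difference were named.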

Additional observations from a re-analysis of the deposited data

Results flagged for a closer look

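WT and GCN2KO cells responded differently to HDW, by the interaction term in edgeR's quasi-likelihood test, for 6 of the 10 clade B serpins. Of all 16536 genes tested, 23.7% passed the same threshold, 12.5% lower and 11.2% higher in GCN2KO cells. SERPINB2 had a difference of -1.84 on the log2 scale and rose in both genotypes, less in GCN2KO cells. SERPINB1 had a difference of -0.86, with a rise in WT cells and a change that did not pass the test in GCN2KO cells. SERPINB7 (-0.45) and SERPINB8 (-0.38) rose in WT cells without a called change in GCN2KO cells. SERPINB6 had a difference of -0.50, higher after HDW in WT and lower in GCN2KO cells. The fall in GCN2KO cells was kept by 3 of the 10 fits that left out 1 library. SERPINB4 had a difference of 0.78, the only positive one among the 6, and was lower after HDW in WT cells. No group of 5 libraries held a value set apart from the other 4 by Dixon's criterion among the 40 groups of values examined.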

How the results depend on the processing

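No count of members moved by over 1.5 times under DESeq2 size factors, without a filter, or with a mean of at least 50 counts required. With the counts of SERPINB3 and SERPINB4 added into 1 gene, the members that were DE genes and higher in GCN2KO cells numbered 1 unwounded and 0 after HDW, 1 member was lower with HDW in WT cells, and 0 had a higher response in GCN2KO cells. That sum was 0.15 in unwounded and 0.47 in wounded GCN2KO against WT cells, the reverse of the sign of SERPINB3, and its response differed by 0.32 (adjusted p = 0.145). After HDW 3 members were higher in GCN2KO cells by library size alone and 3 with counts thinned to the smallest library, and 0 were DE genes that were lower by library size alone. DESeq2 called 1 member lower with HDW in WT cells, and a fit of all 20 samples called 2 higher with HDW in GCN2KO cells. SERPINB5 changed sign with values near 0, to -0.0035 with HDW in GCN2KO cells on thinned counts and to 0.0090 for the difference in response by library size alone. With 1 library left out, members higher in GCN2KO cells after HDW numbered 1 to 3 and DE genes that were lower 0 to 1, members lower with HDW in WT cells 1 to 2, and members higher and lower with HDW in GCN2KO cells 1 to 2 and 0 to 1. In the same fits the HDW change in GCN2KO cells ran from -0.119 to 0.0567 for SERPINB4, from -0.0173 to 0.0422 for SERPINB5 and from -0.0420 to 0.0826 for SERPINB7. The cause of these changes was not tested, apart from fewer samples or merged genes.

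Replicate numbers did not pair the samples: deviations of samples with the same number had mean correlations of -0.129 to 0.027 over the 4 comparisons, and in none did every pair exceed 0.1. With the replicate number as a block, 2 members were higher in GCN2KO cells after HDW and 0 were lower with HDW in GCN2KO cells (SERPINB6, adjusted p = 0.0615). Levels by canonical transcript length, an alternative added after seeing the data, moved by over 1 SD in 31 of 40 values. SERPINB9 had the fewest counts of the members, 1743 over the 20 libraries.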
